A study of Mus musculus with 6 samples.

Results

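The genes encoding glutamate and GABA receptor subunits were described in RNA-seq libraries of cultured oligodendrocyte progenitors (OPCs) from mice. OPCs divide and later mature into the oligodendrocytes that wrap axons in myelin. Members were all listed genes with the standard mouse symbols of AMPA, kainate, NMDA, metabotropic glutamate, GABA-A and GABA-B receptor subunits, 45 of 24421 genes listed. They comprised 4 AMPA, 5 kainate, 7 NMDA, 8 metabotropic glutamate, 19 GABA-A and 2 GABA-B receptor genes. Membership was set by symbol alone, with earlier results of these data known.

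The knockout group held 3 libraries from mice of genotype Prrc2bf/f; Olig2-Cre, and the control group 3 libraries from Prrc2bf/f mice without the Cre, so that both groups carried floxed Prrc2b alleles. Prrc2b encodes a PRRC2 family RNA-binding protein. Per the labels' protocols, cells came from the cortex of C57BL/6J pups at postnatal day 4, were panned on GalC and then on O4 antibody, and were grown with PDGF-AA, bFGF, CNTF, NT3 and forskolin. The series' design text names brain tissue instead. Olig2-Cre acts wherever Olig2 has been expressed, which need not be the oligodendrocyte lineage alone, and no library carried the Cre without the floxed gene, so effects of the Cre and of Prrc2b loss cannot be told apart. The labels do not say whether libraries came from separate animals or how many were pooled, and a p-value here reflects the spread between the libraries at hand, which may be technical.

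Glutamate and GABA are the main excitatory and inhibitory transmitters of the brain. AMPA, kainate and NMDA receptors are cation channels opened by glutamate, built from several subunits each, and the metabotropic receptors act through G proteins. GABA-A receptors are chloride channels, and GABA-B receptors are G protein-coupled and work as a dimer of the Gabbr1 and Gabbr2 products. OPCs are known to carry functional AMPA, kainate and GABA-A receptors and to receive synaptic input from neurons. The same genes are expressed in neurons, many of them at high level.

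Calcium passage through AMPA and kainate receptors depends on the residue at the Q/R site of the pore loop, where the enzyme ADARB1 (ADAR2) edits the Gria2 transcript, and in part those of Grik1 and Grik2, so that a glutamine codon is read as arginine. The gene sequence around this site is shown for all AMPA and kainate subunits because Gria2 transcript exceeded that of every other AMPA subunit in the libraries below. Each sequence is the reference mRNA of GENCODE M21 (GRCm38), written as DNA and 5′ to 3′, and the capitals mark the Q/R codon.
Gria1: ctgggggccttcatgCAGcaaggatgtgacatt
Gria2: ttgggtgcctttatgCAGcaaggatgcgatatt
Gria3: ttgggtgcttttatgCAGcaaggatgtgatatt
Gria4: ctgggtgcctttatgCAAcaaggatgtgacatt
Grik1: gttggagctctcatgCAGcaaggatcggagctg
Grik2: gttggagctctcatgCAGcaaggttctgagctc
Grik3: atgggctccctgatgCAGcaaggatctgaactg
Grik4: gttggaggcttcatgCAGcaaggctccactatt
Grik5: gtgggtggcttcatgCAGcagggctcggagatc
The codon lies at chr3:80706911-80706913 on the minus strand in exon 11 of Gria2, and at chr7:25022497-25022499 on the minus strand in exon 15 of the Grik5 transcript shown. It reads CAG in 8 of 9 genes and CAA in Gria4, both glutamine codons. Over these 33 bases, Gria2 differs from Gria3 at 2 positions, from Gria4 at 4 and from Gria1 at 5. Among kainate subunits, Grik2 differs from Grik1 at 3 positions and from each of Grik3, Grik4 and Grik5 at 9 or 10. The deposited tables give read counts and no base calls, so editing was not measured.

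Libraries held between 26015604 and 28114968 gene counts. Prrc2b transcript stood at 649, 824 and 758 CPM (TMM-scaled counts relative to library size) in knockout libraries 1, 2 and 3, against 933, 1111 and 926 CPM in control libraries 1, 2 and 3. All knockout values were lower than all control values. Counts cover the whole gene and not the floxed part alone. Same-numbered libraries deviated together from their group means, with correlations of 0.712, 0.682 and 0.654 for the numbers 1, 2 and 3, and same-numbered libraries were treated as pairs. The labels do not say what a number marks, so the pairing was inferred from the numbering and from these correlations. Results are therefore given without and with the number as a block. With the block Prrc2b fell by 0.41 on the log2 scale (standard error 0.06, adjusted p 0.00688 by edgeR), and without it the adjusted p was 1.00. OPC markers were present in all libraries, the 14 genes summing to 2975 to 5879 CPM in knockout and 2999 to 5058 CPM in control libraries, with 0 of 14 called with the block. Their median blocked log2 fold change was 0.04. Olig2 came nearest to a call, at a blocked log2 fold change of -0.50 (adjusted p 0.0533 by edgeR). Markers of other cells were detected too. The 25 neuron markers summed to 4476 to 6323 CPM in knockout and 5158 to 6952 CPM in control libraries. Their levels were uneven. Map2 averaged 1004 CPM in knockout and 1043 CPM in control libraries, and Dcx 922 and 1034 CPM. Snap25 averaged 79.0 and 81.5 CPM, and Slc17a7 3.81 and 4.33 CPM. Which cells these transcripts came from was not tested, and the sums do not give cell numbers. The 14 astrocyte markers, some of which OPCs share, summed to 2036 to 3717 CPM in knockout and 1767 to 3184 CPM in control libraries. Of all the markers looked at, only Opalin, of mature oligodendrocytes, was at 0 in some library.

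Among receptor subunit genes edgeR called Grik5 alone, and only with the library number as a block. Of the 45 genes, 40 passed the filter on low counts and were tested. In the unblocked edgeR fit 0 of them were called at an adjusted p under 0.05, beside 0 of all 15906 tested genes (0.00%), and 0 members had an unadjusted p under 0.05, against 274 of all genes (1.72%). With the block 4 members did (10.0%, against 18.2% of all genes). DESeq2 and limma-voom without the block also called 0 members, while DESeq2 called 20 genes in all (0.126%). With the block edgeR called 1 of the 40, Grik5, which was lower in the knockout. That is 2.50% of members, beside 3.80% of all tested genes (604), of which 1.57% were higher and 2.23% lower in the knockout. With the block limma-voom also called Grik5 alone among members (4.48% of all tested genes) and DESeq2 called 0 members (4.22%). Grik5 was also the only member whose groups did not overlap, against 6.34% of all tested genes, 3.60% lower and 2.75% higher in the knockout. In 10 of 40 members all 3 same-numbered pairs differed in the same direction, 6 lower and 4 higher in the knockout, against 40.5% of all tested genes (20.9% lower and 19.6% higher). The median log2 fold change with the block was -0.03 over the members and 0.00 over all tested genes, and the median of its size without regard to sign was 0.09 and 0.11.

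**Figure D1:**
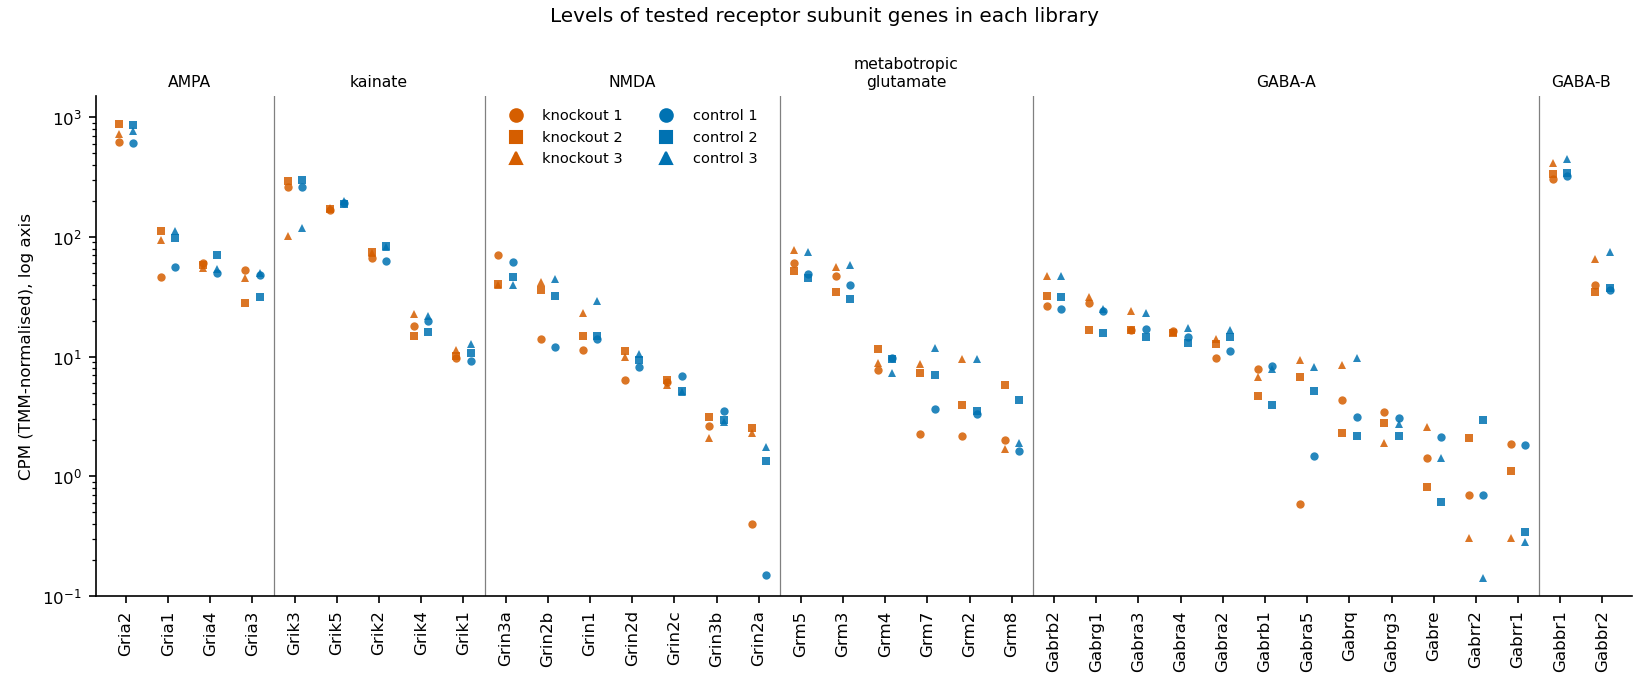
Levels of tested receptor subunit genes in each library, in CPM on a log axis, by receptor family. Knockout libraries are orange and stand left of control libraries, which are blue, and the shape of a point gives the library number. Gria2 is highest at 607 to 879 CPM, and both Grik3 triangles (102 and 119 CPM) lie far under the other Grik3 points.

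The 95% interval of the blocked fold change lay inside 1.2-fold in either direction for 11 of 40 members, inside 1.5-fold for 29 and inside 2-fold for 36. They included Gabbr1, Gabbr2, Gabrb2, Gria2, Gria3, Gria4, Grik2, Grik3, Grik5 and Grin3a. The members outside 2-fold were Grin2a, Gabre, Gabrr1 and Gabrr2, each below 3 CPM in all 6 libraries. Without the block intervals were wider, with a median half-width of 0.71 on the log2 scale over the members against 0.26 with it.

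**Figure D2:**
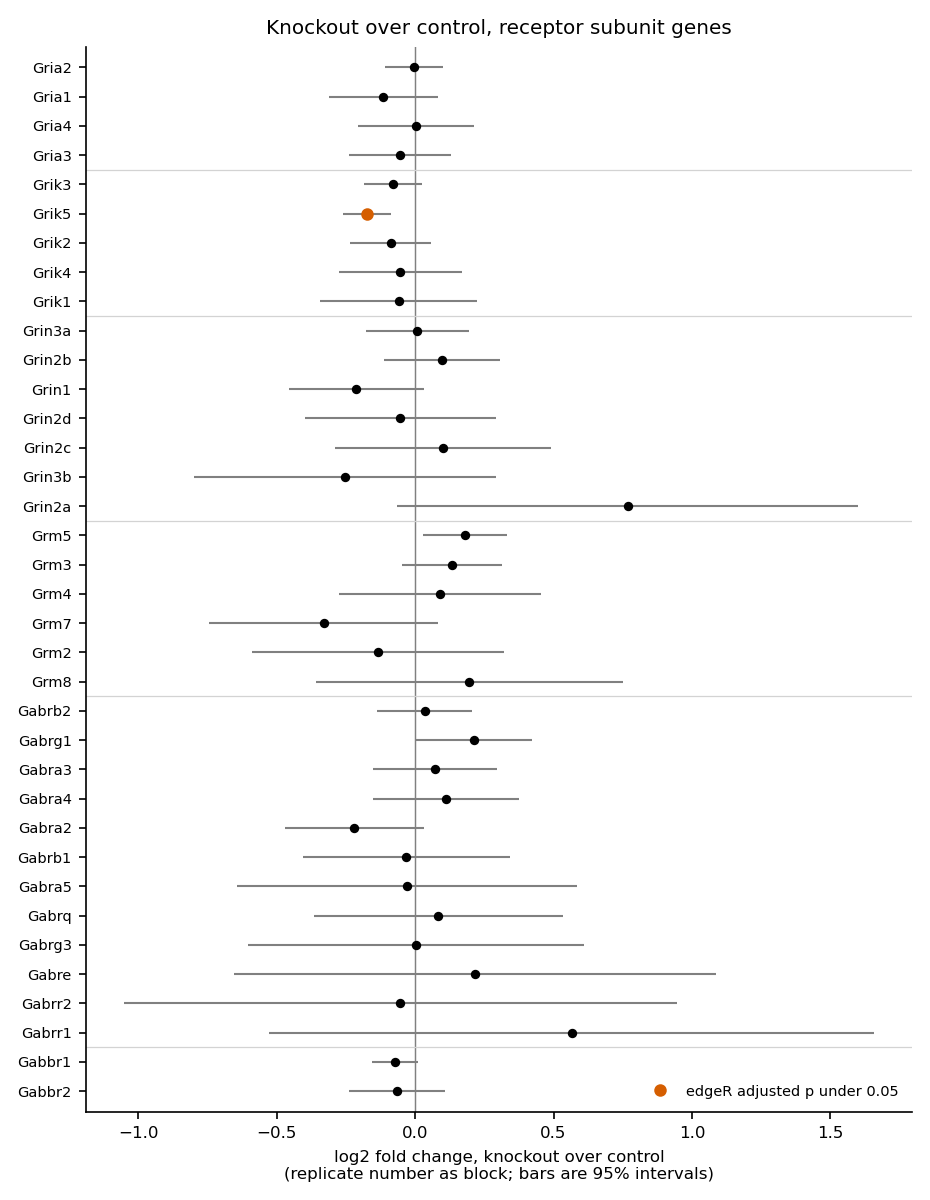
Log2 fold changes of tested receptor subunit genes, knockout over control, with the library number as a block. Bars are 95% intervals and genes are grouped by receptor family. Grik5 (-0.17) is the only gene with an edgeR adjusted p under 0.05, and the widest intervals belong to genes of low count such as Grin2a.

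AMPA receptor transcripts were dominated by Gria2, whose edited subunit keeps calcium out of the channel. Gria2 stood at 622, 879 and 725 CPM in knockout libraries 1, 2 and 3, against 607, 866 and 762 CPM in control libraries 1, 2 and 3. The groups overlapped throughout, both libraries numbered 1 being lowest and both numbered 2 highest. Its blocked log2 fold change was -0.01, with a 95% interval from -0.11 to 0.10 (edgeR adjusted p = 0.969), and it turned to 0.01 or 0.02 under library-total or upper-quartile scaling or a filter at 5 CPM. Per kilobase of exon, Gria2 made up 63.6% ± 1.58 of AMPA subunit reads in knockout and 62.9% ± 2.33 in control libraries (SD, n = 3 each). Gria1, the subunit most linked to activity-driven receptor insertion in neurons, followed at 18.0% ± 5.03 in knockout and 18.9% ± 3.86 in control libraries. Its level was 46.1, 111 and 93.8 CPM in knockout libraries, against 56.0, 97.9 and 112 CPM in control libraries, lowest at number 1 in both groups (blocked log2 fold change -0.11, interval -0.31 to 0.08). Gria4 stood at 60.5, 58.2 and 54.5 CPM in knockout libraries, against 49.9, 70.1 and 54.3 CPM in control libraries. All knockout values of Gria4 thus lay within the range of the control values. Gria3 was the least abundant per kilobase, at 6.00% ± 2.70 in knockout and 5.99% ± 2.19 in control libraries. The 4 genes together summed to 926 ± 148 CPM in knockout and 935 ± 157 CPM in control libraries.

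Kainate receptor transcripts were mostly Grik5 and Grik3. Grik5 encodes a high-affinity subunit that forms channels only together with a subunit of the Grik1 to Grik3 group, and Grik3 is one of that group. Grik5 stood at 167, 172 and 175 CPM in knockout libraries 1, 2 and 3, against 191, 188 and 200.1 CPM in control libraries 1, 2 and 3. Every knockout library lay under every control library, and the spread within groups was small. With the block Grik5 fell by 0.17 on the log2 scale (standard error 0.04, interval -0.26 to -0.09, adjusted p 0.0387 by edgeR), a ratio of 0.886 to the control. Without the block the log2 fold change was -0.17 (unadjusted p = 0.0594, adjusted p = 1.00 by edgeR). The edgeR adjusted p with the block was 0.0436 without the pair numbered 2, 0.111 without the pair numbered 1 and 0.221 without the pair numbered 3. Scaling by library totals (0.0765) or upper quartile (0.0713), a filter at a mean of 5 CPM (0.0633) and the DESeq2 test (0.0575) also ended the call.

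Grik5 is a gene of high GC content. The longest Grik5 transcript has 61.7% GC, which placed it in the highest of 20 bins of GC content, where the median blocked log2 fold change of all 767 tested genes was -0.15. In the lowest bin that median was 0.02. After correction for GC content in the blocked fit, Grik5 stood at -0.03 (standard error 0.04, adjusted p 0.709 by edgeR). The correction takes out the median deviation of each bin in each library, so a gene near its bin's median comes out near 0. The other members of the highest bin were Grin2c, Grin2d, Grin3b and Grm4. Their blocked values were 0.10, -0.05, -0.25 and 0.09. Neuron markers also fell in part, 7 of 25 with the block and 0 rising, with a median log2 fold change of -0.17. Endothelial markers rose, 9 of 10 with the block, and summed to 49.2 to 336 CPM in knockout and 21.1 to 97.9 CPM in control libraries. The part of GC content or of these cell types in the Grik5 result was not tested. In bulk libraries fewer cells of a type cannot be told apart from less RNA per cell.

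**Figure D3:**
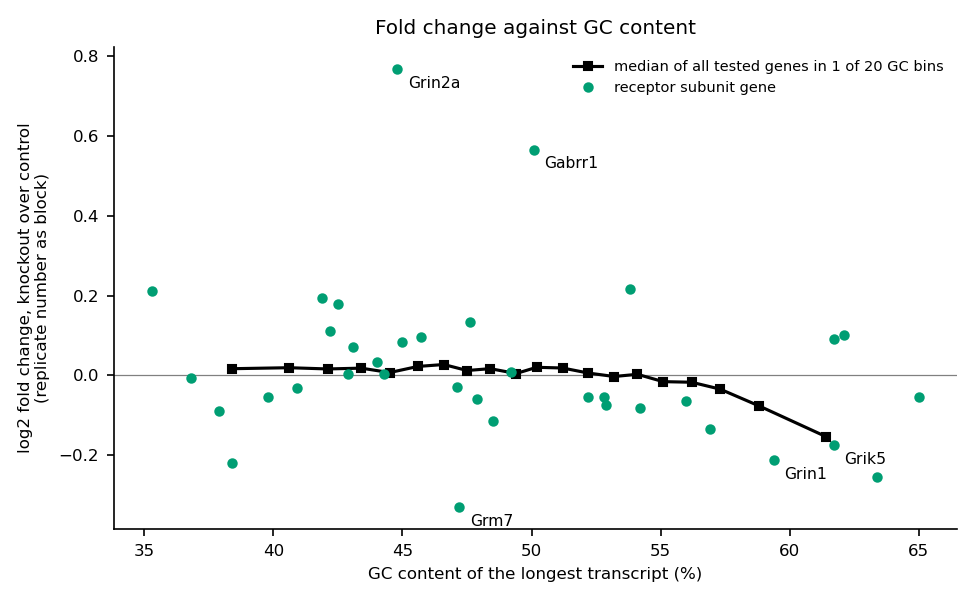
Blocked log2 fold change, knockout over control, against GC content of the longest transcript. Green points are tested receptor subunit genes and black squares are medians of all tested genes in 20 GC bins. The medians lie between -0.03 and 0.03 in the first 18 bins and reach -0.15 in the highest bin, where Grik5 lies at -0.17.

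The remaining kainate genes did not pass. Grik3 stood at 262, 295 and 102 CPM in knockout libraries 1, 2 and 3, against 264, 298 and 119 CPM in control libraries 1, 2 and 3. Both libraries numbered 3 were far under the other 4. The genotypes lay close at numbers 1 and 2, and the knockout was lower at number 3 (blocked log2 fold change -0.08, interval -0.19 to 0.02, edgeR adjusted p = 0.414). Grik2, an edited subunit of many neuronal kainate receptors, stood at 66.5, 74.8 and 73.3 CPM in knockout libraries, against 63.2, 84.4 and 81.9 CPM in control libraries. Grik4 and Grik1 were lower still per kilobase, and each made up under 7% of kainate subunit reads in all 6 libraries. With less Grik3 at number 3, Grik5 took 45.6%, 43.9% and 60.1% of kainate subunit reads per kilobase in knockout libraries 1, 2 and 3, against 48.8%, 45.4% and 60.8% in control libraries 1, 2 and 3. All 5 kainate genes had blocked fold changes under 0, from -0.17 to -0.05, and 4 of the 5 intervals included 0. Of all 15906 tested genes, 7863 had blocked fold changes under 0.

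**Figure D4:**
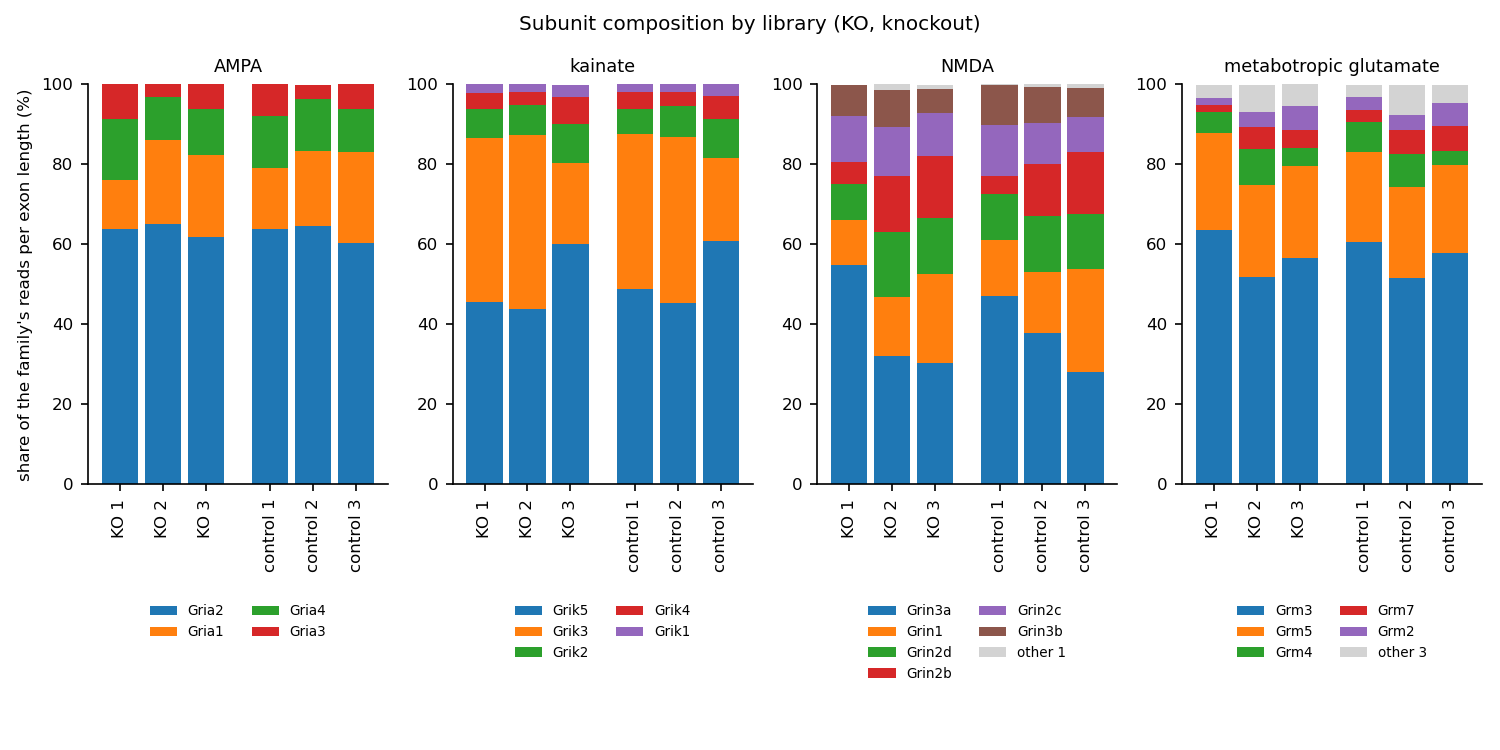
Shares of subunits among the reads of 4 glutamate receptor families, in percent per kilobase of exon, in each library. Knockout (KO) libraries stand left of control libraries within each panel, and grey holds all genes without a colour of their own. Gria2 takes 60.3 to 65.0% of AMPA subunit reads in all 6 libraries, and Grik3 takes less of the kainate family in both libraries numbered 3.

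NMDA receptor transcripts were low and, per kilobase of exon, led by Grin3a. Grin1 encodes the subunit that every NMDA receptor needs, the Grin2 genes encode the glutamate-binding subunits, and the product of Grin3a lowers calcium entry through the channel. Grin3a stood at 70.7, 40.4 and 40.0 CPM in knockout libraries 1, 2 and 3, against 61.4, 46.4 and 39.7 CPM in control libraries 1, 2 and 3. It was highest at number 1 in both groups, and its blocked interval ran from -0.18 to 0.19. Grin1 had 11.4, 14.8 and 23.3 CPM in knockout libraries, against 14.1, 14.8 and 29.1 CPM in control libraries. It was lower in all 3 pairs, though nearly equal at number 2 (blocked log2 fold change -0.21, interval -0.46 to 0.03, edgeR adjusted p = 0.346). An antisense gene, Grin1os, shares 13.5% of the exon bases of Grin1, and how the counting treated strand is unknown, so the counts of Grin1 are uncertain. Per kilobase, Grin3a made up 39.1% ± 13.7 of NMDA subunit reads in knockout and 37.6% ± 9.59 in control libraries, and Grin1 made up 16.1% ± 5.65 in knockout and 18.3% ± 6.63 in control libraries. With the longest transcript as length, Grin1 exceeded Grin3a in both libraries numbered 3. The shares there were 33.3% against 32.7% in knockout and 38.0% against 29.6% in control.

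The Grin2 genes did not pass in any fit. Grin2b, the main Grin2 gene of the young brain, stood at 14.1, 36.0 and 42.1 CPM in knockout libraries 1, 2 and 3, against 11.9, 32.2 and 44.7 CPM in control libraries 1, 2 and 3. Both libraries numbered 1 held less of it than all others (blocked log2 fold change 0.10, interval -0.11 to 0.31). Grin2a, which replaces Grin2b in maturing neurons, had 11, 71 and 61 read pairs in knockout libraries, against 4, 35 and 50 in control libraries. It was higher in the knockout in all 3 pairs, at 0.401, 2.53 and 2.30 CPM against 0.148, 1.34 and 1.77 CPM in control libraries, but its blocked change of 0.77 (interval -0.06 to 1.60) did not pass (edgeR adjusted p = 0.316). Grin2d stood at 6.34, 11.2 and 9.97 CPM in knockout and 8.12, 9.42 and 10.5 CPM in control libraries. Grin2c and Grin3b stayed between 2.08 and 6.90 CPM, and 32.1% of Grin3b exon bases overlap Tmem259 on the other strand, which makes its counts uncertain.

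Metabotropic glutamate receptor transcripts were mainly Grm3 and Grm5. Grm5 encodes a receptor coupled to phospholipase C and calcium release, and Grm3 one that lowers cyclic AMP. Grm5 stood at 61.0, 51.5 and 77.6 CPM in knockout libraries 1, 2 and 3, against 49.3, 45.4 and 74.8 CPM in control libraries 1, 2 and 3. It was higher in the knockout in all 3 pairs although the groups overlapped. The blocked log2 fold change was 0.18 (interval 0.03 to 0.33), with an unadjusted p of 0.0252 that did not pass adjustment (edgeR adjusted p = 0.198). Grm3 stood at 47.4, 34.6 and 56.5 CPM in knockout libraries, against 39.5, 30.4 and 58.4 CPM in control libraries, higher in the knockout in 2 of 3 pairs (blocked log2 fold change 0.13, interval -0.05 to 0.31). Per kilobase Grm3 held 57.3% ± 5.91 of the family in knockout and 56.6% ± 4.64 in control libraries. Grm4, next per kilobase, had 7.79, 11.6 and 8.91 CPM in knockout libraries, against 9.75, 9.46 and 7.25 CPM in control libraries. Grm2, Grm7 and Grm8 ranged from 1.62 to 11.8 CPM over all libraries, and none of them passed.

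Of the 19 GABA-A receptor genes 15 were tested, and 0 were called with or without the block. Beta subunits are needed for the channel to form, and gamma subunits place it at synapses. Gabrb2 stood at 26.3, 32.3 and 47.0 CPM in knockout libraries 1, 2 and 3, against 25.1, 31.3 and 47.4 CPM in control libraries 1, 2 and 3. It was highest at number 3 in both groups, with a blocked interval from -0.14 to 0.21. Gabra3 stood at 16.6, 16.6 and 24.1 CPM in knockout and 17.1, 14.5 and 23.1 CPM in control libraries.

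Gabrg1, a gamma subunit gene, stood at 28.0, 16.7 and 31.5 CPM in knockout libraries 1, 2 and 3, against 24.1, 15.8 and 25.1 CPM in control libraries 1, 2 and 3. It was higher in the knockout in all 3 pairs but did not pass (blocked log2 fold change 0.21, unadjusted p = 0.0488, edgeR adjusted p = 0.272). Gabra2 was lower in all 3 pairs, at 9.65, 12.8 and 14.1 CPM in knockout and 11.2, 14.7 and 16.7 CPM in control libraries (blocked log2 fold change -0.22, edgeR adjusted p = 0.343). Gabra4, Gabra5, Gabrb1, Gabrg3, Gabrq, Gabre and the rho genes Gabrr1 and Gabrr2 stayed under 20 CPM in every library, and none passed.

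The GABA-B receptor genes were both expressed, Gabbr1 far above Gabbr2. Gabbr1 stood at 302, 337 and 413 CPM in knockout libraries 1, 2 and 3, against 322, 341 and 446 CPM in control libraries 1, 2 and 3. It was lower in the knockout in all 3 pairs by little, with a blocked log2 fold change of -0.07 and an interval from -0.16 to 0.01 (edgeR adjusted p = 0.343). Gabbr2 stood at 39.3, 34.5 and 65.6 CPM in knockout libraries, against 36.1, 37.4 and 75.0 CPM in control libraries, highest at number 3 in both groups. Per kilobase Gabbr1 made up 86.9% ± 2.46 of the reads of both genes in knockout and 86.9% ± 2.86 in control libraries.

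The 5 genes that did not pass the filter were at or near 0. Gabra6, a cerebellar granule cell subunit, had 0 read pairs in all knockout libraries and 0, 2 and 0 in control libraries. Gabrp had 3, 0 and 0 in knockout and 0, 0 and 1 in control libraries, and Gabrr3 had 0, 0 and 1 in knockout and 0, 0 and 3 in control libraries. Grm6, of retinal bipolar cells, had 5, 3 and 2 in knockout and 9, 0 and 0 in control libraries. Gabrd had 4, 14 and 1 in knockout and 4, 9 and 4 in control libraries. A count of 0 allows up to 3 read pairs, which is 0.106 to 0.114 CPM in these libraries and covers counting error only.

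Many members differed between library numbers. The highest library held at least 2-fold the lowest for 19 of 40 tested members, against 34.2% of all tested genes. Both libraries numbered 1 lay under the other 4 for 18 members, 45.0% of them, against 16.2% of all tested genes. These included Gria1, Gria2, Grin1, Grin2a, Grin2b, Grin2d, Grm2, Grm7, Gabra2 and Gabra5. Both libraries numbered 3 lay above the other 4 for 17 members (42.5%, against 19.5%), among them Gabbr1, Gabbr2, Grm3 and Grm5. Gabra5, an alpha subunit of extrasynaptic receptors, stood at 0.583, 6.73 and 9.33 CPM in knockout libraries 1, 2 and 3, against 1.48, 5.11 and 8.24 CPM in control libraries 1, 2 and 3. The reverse, both libraries numbered 1 above all others, was seen for Grin3a, Gabrb1, Gabrg3 and Gabrr1 (10.0% of members, against 13.9% of all tested genes). Both libraries numbered 2 lay above the other 4 for 12.5% of members and under them for 20.0%, each against 18.6% of all tested genes. Both libraries numbered 3 lay under the other 4 for 10.0% of members, against 18.8%. These counts are descriptions with no test.

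Cell type markers differed between the numbers as well. OPC markers summed to 5879, 2975 and 4488 CPM in knockout libraries 1, 2 and 3, against 5058, 2999 and 4384 CPM in control libraries 1, 2 and 3, highest at number 1. Neuron markers summed to 4476, 6323 and 4496 CPM in knockout libraries and 5194, 6952 and 5158 CPM in control libraries, highest at number 2. Microglia markers summed to 13.2, 257 and 206 CPM in knockout libraries and 14.2, 261 and 182 CPM in control libraries, lowest at number 1. Pericyte and fibroblast markers summed to 216, 137 and 1121 CPM in knockout libraries and 206, 101 and 710.4 CPM in control libraries, highest at number 3. The part of any of these cells in the receptor levels was not tested.

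**Figure D5:**
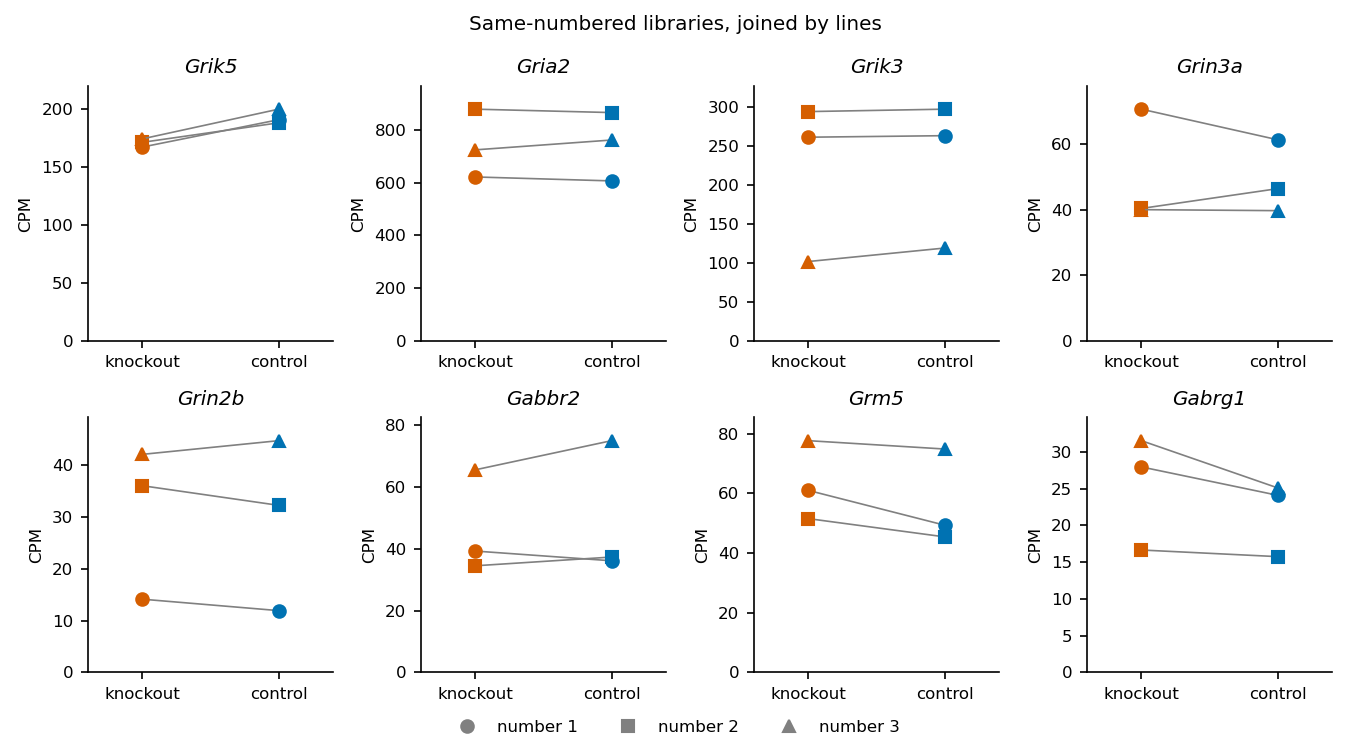
Levels in CPM of 8 receptor subunit genes in knockout (left, orange) and control (right, blue) libraries, with same-numbered libraries joined by lines and the number given by the shape. For Grik5 all 3 lines run to higher control values. For Grik3 and Gabbr2 the libraries numbered 3 stand apart from the others, and for Grin2b those numbered 1. These gaps are wider than the rise or fall of any line of the same gene.

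Genes that work with these receptors were read off the same fits. Without the block 0 of the 86 tested genes of 7 lists of partners, transporters and enzymes were called, and with it 4 were called, 2 higher and 2 lower, a share near the 3.80% of all tested genes. After GC correction in the blocked fit 1 of them was called, which was higher in the knockout, and 0 were called lower. With library totals or upper quartile 1 was called lower. Without 1 pair between 2 and 5 were called. Of 14 auxiliary subunits of AMPA and kainate receptors 0 passed with the block, with a median log2 fold change of -0.10. The smallest adjusted p among them was that of Cnih2, a chaperone of AMPA receptors, at 52.7 ± 27.5 CPM in knockout and 64.1 ± 34.1 CPM in control libraries (blocked log2 fold change -0.29, standard error 0.08, adjusted p 0.0956 by edgeR). Of 22 excitatory scaffold genes 1 fell and 21 did not pass, with a median of -0.13. Dlgap3, of the PSD-95 binding scaffold, stood at 76.4, 121 and 56.4 CPM in knockout libraries, against 100.4, 151 and 68.7 CPM in control libraries, a blocked log2 fold change of -0.33 (standard error 0.05, adjusted p 0.0119 by edgeR). Of 15 inhibitory synapse and GABA receptor partners 0 passed, Kctd12b and the adhesion molecule gene Nlgn2 being nearest at edgeR adjusted p = 0.0532 and 0.0551.

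Among genes of transmitter supply, 2 rose and 1 fell with the block. Slc7a11, the cystine-glutamate exchanger, stood at 164, 98.1 and 84.0 CPM in knockout libraries 1, 2 and 3, against 136, 76.7 and 59.0 CPM in control libraries 1, 2 and 3 (blocked log2 fold change 0.38, standard error 0.06, adjusted p 0.0114 by edgeR). Slc1a2, the main glial glutamate transporter and an astrocyte marker, stood at 708, 427 and 462 CPM in knockout and 584, 376 and 419 CPM in control libraries (0.20, standard error 0.04, adjusted p 0.0354 by edgeR). The other 14 genes of glutamate uptake, release and metabolism did not pass. Astrocyte markers rose in part, 4 of 14 with the block, Slc1a2 itself among them, and 0 falling. Of 8 tested genes of GABA synthesis, uptake, release and breakdown, Slc32a1, the vesicular GABA transporter of inhibitory neurons, fell, at 41.6, 75.3 and 32.4 CPM in knockout and 48.0, 99.7 and 38.6 CPM in control libraries (-0.29, standard error 0.07, adjusted p 0.0456 by edgeR). After GC correction neither Slc32a1 nor Dlgap3 was called. Of 8 tested delta glutamate receptor, glycine receptor and related genes 0 passed. Nor did any of the 3 editing enzymes, with the blocked log2 fold change of Adarb1 at -0.02 (standard error 0.07, adjusted p 0.933 by edgeR).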

How the data were processed

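RNA-seq was measured in 6 libraries, 3 knockout and 3 control, grouped by the genotype in the labels. Per the labels' protocols, poly(A) RNA was made into dUTP-stranded, paired-end libraries. The deposited values are whole-number counts per gene symbol, not normalised. The tools listed by the submitters' processing notes are HISAT2 (2.2.1), HTSeq (0.12.4) and DESeq2 (1.26.0), with the build mm10 and no roles. Annotation, parameters and strand setting are not stated there. The 5 entries that name no gene entered neither library sizes nor tests. They held, as ranges over libraries, 18.89% to 21.32% (no feature), 1.434% to 1.5% (ambiguous), 2.909% to 4.091% (low quality), 0.9624% to 1.386% (not aligned) and 3.339% to 3.537% (not unique) of read pairs. 0 per-sample columns were left unused.

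Of 24421 genes listed, 15906 passed edgeR's expression filter and were tested on TMM-scaled counts in edgeR 4.0.16 (R 4.3.3; quasi-likelihood, 2-sided), with group as the only term, and adjusted by Benjamini-Hochberg over all of them. A call is an adjusted p under 0.05, and fold changes are knockout over control. The same model with the library number as a block is given beside it, since the labels number both groups alike and deviations of same-numbered libraries correlated at 0.654 to 0.712. Common biological variation (coefficient) came to 0.315 without and 0.104 with the block, at 4 and 2 residual degrees of freedom. The members, gene lists and tests were chosen with earlier results of these data known. Values in every library are given for members called in either fit, the 3 most abundant per kilobase in each family, both GABA-B genes and the 5 smallest blocked p-values. Gabra2, Gabra5, Grin2b and the 5 untested genes were added after their values were seen. Some members are counted in the totals and not reported here by name. From each partner list up to 3 genes with the smallest adjusted p could be named.

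Lengths (union of exons), GC content and coordinates came from GENCODE M21 (GRCm38), matched by symbol for all 45 members. Alternatives were library totals, upper quartile and DESeq2 size factors as scaling, no filter or a mean of 5 CPM, DESeq2 1.42.0 and limma-voom (limma 3.58.1), a GC correction in 20 bins, and left-out libraries or pairs. The fits were tested on simulated data.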

Additional observations from a re-analysis of the deposited data

Results flagged for a closer look

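Of the 5 entries of the count tables that name no gene, 3 were higher on average in knockout than in control libraries. Read pairs on no annotated feature averaged 20.8% in knockout and 19.7% in control libraries, those of low alignment quality 3.83% in knockout and 3.11% in control, and those not aligned 1.25% in knockout and 1.03% in control libraries (n = 3 each). The other 2 were slightly lower on average in the knockout, and their ranges overlapped. Ambiguous read pairs made up 1.434% to 1.49% in knockout and 1.443% to 1.5% in control libraries, and those aligned at several places 3.339% to 3.537% in knockout and 3.454% to 3.476% in control libraries. In each of the 3 higher entries every knockout library lay above every control library. The ranges were 20.4% to 21.32% in knockout against 18.89% to 20.1% in control libraries for no feature. They were 3.599% to 4.091% against 2.909% to 3.295% for low quality, and 1.158% to 1.386% against 0.9624% to 1.136% for not aligned. The report's comparisons use none of the 5 entries. No receptor subunit gene is among them, and their part in the results was not tested.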

How the results depend on the processing

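Over all tested genes, 0 were called without the block and 20 with the DESeq2 test. With the replicate block edgeR called 604, and 502 with library totals, 536 with upper quartile, 573 with DESeq2 size factors, 1034 with no filter, 435 at a mean of 5 CPM, 671 with DESeq2, 712 with limma-voom and 396 after GC correction. Of receptor genes the block called 1, Grik5, also with DESeq2 size factors, no filter, limma-voom and without the pair numbered 2. It called 0 in the other blocked settings. Of the partner lists it called 4, and 5 with library totals, 6 with upper quartile, 4 with DESeq2 size factors, 14 with no filter, 4 at a mean of 5 CPM, 9 with DESeq2, 8 with limma-voom and 1 after GC correction. Leaving out libraries or pairs gave 0 to 521 genes, 0 to 1 receptor genes and 0 to 5 partner genes. Without the pair numbered 1, 2 or 3 the blocked fit called 444, 521 and 174 genes.

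With the longest transcript as length, Gria2 made up 67.7% of AMPA subunit reads in knockout and 67.2% in control libraries. Some log2 fold changes near 0 that no test called changed sign. Gria2 came to 0.02 with library totals or upper quartile and 0.01 at a mean of 5 CPM, with or without the block. Gria4 came to 0.02, 0.02 and 0.01 in those settings and 0.01 with limma-voom, and with the block to 0.03, 0.03 and 0.02. Grin2d came to 0.08 with block and GC correction. Leaving out libraries or pairs gave ranges of -0.21 to 0.08 for Gabbr1, -0.43 to 0.34 for Gabbr2, -0.14 to 0.28 for Gabra3, -0.24 to 0.33 for Gabrb2, -0.35 to 0.21 for Gria1, -0.15 to 0.11 for Gria2 and -0.12 to 0.15 for Gria4. They were -0.35 to 0.29 for Grik3, -0.56 to 0.19 for Grin1, -0.21 to 0.18 for Grin2d, -0.29 to 0.23 for Grin3a, -0.09 to 0.41 for Grm3, -0.08 to 0.30 for Grm4 and -0.01 to 0.42 for Grm5. With libraries or pairs left out, Grik5 stayed between -0.19 and -0.14 and Prrc2b between -0.49 and -0.32. With block and GC correction Grik5 came to -0.03. The cause of these differences was not tested. Genes with few read pairs, such as Grin2a, have wide intervals, and the number of libraries limits the precision of all results.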

Other observations

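Markers of cells at the ventricle and vessels moved with the genotype. With the block 6 of 8 choroid plexus and ependymal markers rose and 0 fell, and they summed to 1023, 833 and 2803 CPM in knockout libraries 1, 2 and 3, against 421, 358 and 1916 CPM in control libraries 1, 2 and 3. Of 10 pericyte and fibroblast markers 2 rose. Of 8 tested oligodendrocyte markers 0 passed, with sums of 753, 507 and 275 CPM in knockout libraries and 329, 946 and 228 CPM in control libraries. The part of these cells in the receptor subunit levels was not tested.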
